A study of Mus musculus with 6 samples.

Results

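The genes described here belong to the insulin-like growth factor (IGF) system: the ligands Igf1 and Igf2, the receptors Igf1r and Igf2r, the secreted binding proteins Igfbp2, Igfbp3, Igfbp4 and Igfbp5, the RNA-binding protein Igf2bp1 and the noncoding RNA H19. They were listed by name, and the probes were those whose RefSeq accession carries one of the symbols. Of the 10 listed genes, 9 had at least 1 probe, 17 probes in all, among 13381 genes tested on the arrays. No probe had an accession that the annotation assigns to H19, which is not analysed here. The list was chosen by a reading of earlier results from these same arrays, with the differences between the lines in view. The members' differences between the lines are therefore a description, and nothing is read from their place in a test between the lines.

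IGF signalling begins when Igf1 or Igf2 binds Igf1r, a receptor tyrosine kinase that acts through insulin receptor substrates, phosphoinositide 3-kinase and Akt on growth and survival. Igf2r, the cation-independent mannose 6-phosphate receptor, has no kinase activity: it carries Igf2 to the lysosome for degradation and sorts lysosomal enzymes. The binding proteins hold the ligands in the extracellular space and are cut by proteases, and in mouse embryos Igf2 is expressed mainly from the paternal allele, Igf2r and H19 mainly from the maternal one.

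The cells were P19, embryonal carcinoma cells of the mouse that turn into neurons when aggregated with retinoic acid. One line expressed AICD, the intracellular domain released from the amyloid precursor protein (AICD line), and the other carried the empty pCDNA vector (vector line). Each was sampled undifferentiated, after 4 days of growth in aggregates, with all-trans retinoic acid in the medium (aggregated), and 2 days after those aggregates were replated (differentiated), and both lines received the same culture steps. There was 1 single-colour (Cy3) Agilent array per line and state, 6 in all. The sources used here do not name the promoter driving AICD or the species of its sequence, nor say whether either line is 1 clone, so a difference between the lines cannot be told apart from a difference between clones. Nothing in the labels describes replicate cultures.

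On each array 43379 spots were not controls, between 62.0% and 65.9% of them lay well above background, and 0 were saturated. Processed signals had a 75th percentile between 528.5 and 860.1. Both undifferentiated arrays were on one slide and the other 4 arrays on a second, so the step from undifferentiated to aggregated cannot be told apart from the slide, whereas each line comparison lay within a slide. Of 10 embryonal carcinoma markers, 7 were measured, and Nanog was not among them. All 7, Pou5f1 and Sox2 among them, were well above background on both undifferentiated arrays, where their summed signal was 138.3 in the AICD line and 139.4 in the vector line. It was 19.6 and 11.4 in aggregated and 20.9 and 5.23 in differentiated AICD and vector cells. Some single markers lay further apart than the sums. In log2 of the scaled signal, aggregated Pou5f1 was 3.23 in AICD and -2.35 in vector cells, and Gdf3 0.86 and -4.93. Sox2, the brightest there in vector cells, was 2.93 and 3.41. After aggregation the median of the 7 differences, AICD minus vector, was 0.68 log2, with 4 positive and 3 negative. After replating it was 1.82 over the 6 markers measured on both arrays, with 5 positive and 1 negative. The summed signal of 12 neuron markers was 19.1, 102.8 and 189.4 in undifferentiated, aggregated and differentiated AICD cells, against 18.3, 61.6 and 237.7 in vector cells. In RNA from whole cultures, fewer cells of a type and less RNA per cell cannot be told apart.

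Promoter windows are printed because their genes, Igf2r, Igf1 and Igf2, differed most between the lines in at least 1 state, and because the cultures were treated with a nuclear receptor ligand. Each window holds 250 bases before and 50 bases after a RefSeq transcript start on build GRCm38.p6, read 5′ to 3′ on the strand of the gene. Capitals mark GGGCGG (GC box) and AGGTCA (the core motif that nuclear receptors bind), searched on both strands, so CCGCCC and TGACCT are capitals as well; adjacent matches run together. The window of Igf2r is chr17:12769657-12769956 on the minus strand, that of Igf1 is chr10:87860861-87861160 on the plus strand, and those of Igf2 are chr7:142666767-142667066, at its upstream start, and chr7:142657447-142657746, at its most downstream start, both on the minus strand.
Igf2r: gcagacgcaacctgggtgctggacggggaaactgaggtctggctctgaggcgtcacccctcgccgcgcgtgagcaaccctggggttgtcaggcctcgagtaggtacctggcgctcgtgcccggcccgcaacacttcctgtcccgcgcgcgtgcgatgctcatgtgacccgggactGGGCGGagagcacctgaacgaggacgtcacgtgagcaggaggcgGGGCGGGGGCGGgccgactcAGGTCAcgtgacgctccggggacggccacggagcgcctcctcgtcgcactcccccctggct
Igf1: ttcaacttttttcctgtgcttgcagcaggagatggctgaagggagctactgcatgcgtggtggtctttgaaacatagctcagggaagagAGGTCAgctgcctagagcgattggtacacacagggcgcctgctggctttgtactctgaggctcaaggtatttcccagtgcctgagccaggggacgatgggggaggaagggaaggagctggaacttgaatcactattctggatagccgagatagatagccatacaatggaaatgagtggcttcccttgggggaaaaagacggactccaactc
Igf2, upstream start: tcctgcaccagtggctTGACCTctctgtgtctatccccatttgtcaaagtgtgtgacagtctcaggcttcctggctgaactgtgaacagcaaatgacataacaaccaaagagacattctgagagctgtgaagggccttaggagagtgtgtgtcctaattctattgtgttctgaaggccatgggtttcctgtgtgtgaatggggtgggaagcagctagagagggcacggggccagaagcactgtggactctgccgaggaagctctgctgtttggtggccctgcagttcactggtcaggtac
Igf2, downstream start: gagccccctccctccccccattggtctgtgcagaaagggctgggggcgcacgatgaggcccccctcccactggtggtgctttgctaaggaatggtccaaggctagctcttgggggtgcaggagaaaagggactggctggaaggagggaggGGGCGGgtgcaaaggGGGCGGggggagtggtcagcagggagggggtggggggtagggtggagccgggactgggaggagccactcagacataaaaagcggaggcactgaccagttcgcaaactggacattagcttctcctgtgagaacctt
The Igf2r window held 3 GC boxes, 1 AGGTCA motif and 34 CG dinucleotides, more CG than 92.3% of 32851 mouse promoter windows of the same length, whose median was 7. The Igf1 window held 1 AGGTCA motif, 0 GC boxes and 6 CG dinucleotides. Of the 4 windows of Igf2, the upstream one held an AGGTCA motif and 2 CG dinucleotides, while the downstream one held 2 GC boxes and 7 CG dinucleotides. The windows between them, not printed, were richer in CG: one held 24 CG dinucleotides and 1 GC box, the other 14 CG dinucleotides and 0 GC boxes. Over 12 windows of 8 listed genes, 5 held a GC box, which 35.7% of all windows hold, and 4 held an AGGTCA motif, which 16.3% of all windows hold. The fourth gene with the motif was Igf1r, and Igf2bp1 and H19 had no window. These are matches of letters, and the probes do not show which start was used.

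Both ligands were lower in the AICD line after aggregation and after replating. Igf2 was higher in the AICD line before aggregation and far lower in it after replating. Signals below are relative signals, the processed signal divided by the 75th percentile of its array, and differences are in log2 units, AICD minus vector or later minus earlier state. The probe used for Igf2 had 10 spots per array, whose SD ran from 0.0398 to 0.0903 log2 within an array. Its relative signal was 4.87 in undifferentiated AICD cells and 1.41 in undifferentiated vector cells, 3.46-fold higher in the AICD line (1.79 log2). After aggregation it was 9.20 in AICD cells and 17.5 in vector cells, 1.90-fold lower in the AICD line. After replating it was 1.99 in AICD cells and 49.8 in vector cells, 25.0-fold lower (-4.65). Igf2 thus stood above vector in 1 state and below it in the other two, each time by more than the spread between its spots, which is not a spread between cultures.

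Within the vector line Igf2 was higher after each step, by 3.63 on aggregation and by 1.51 on replating, 35.4-fold over the whole course. In the AICD line it was 0.92 higher after aggregation and 2.21 lower after replating, ending 2.45-fold below its undifferentiated level. The second Igf2 probe, with 1 spot, gave line differences of 1.96, -0.97 and -4.90 in undifferentiated, aggregated and differentiated cells. Both probes gave the same sign at every comparison of lines and at every step.

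Igf1 was dim in every state of the AICD line. Its relative signal was 0.0234, 0.0659 and 0.0223 in undifferentiated, aggregated and differentiated AICD cells, and 0.139 and 0.214 in aggregated and differentiated vector cells. In undifferentiated vector cells it was not well above background, so the AICD line was at least 1.39-fold higher there. The AICD line was 2.11-fold lower after aggregation (-1.08) and 9.60-fold lower after replating (-3.26). In the vector line Igf1 was at least 8.26-fold higher after aggregation and 0.62 higher again after replating, while in the AICD line it was 2.82-fold higher and then 2.96-fold lower. In undifferentiated cells 7 of 10 spots were above background in the AICD line and 2 of 10 in the vector line, and their processed signals overlapped, at 9.12 to 20.0 and 4.09 to 15.5. Its second probe was well above background only in aggregated and differentiated vector cells, where the AICD line was at least 1.57-fold and at least 4.54-fold lower. With normexp background correction the Igf1 line differences were -0.06 in undifferentiated cells, -0.41 after aggregation and -1.52 after replating, so the order of the lines before aggregation is not settled for Igf1.

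**Figure D1:**
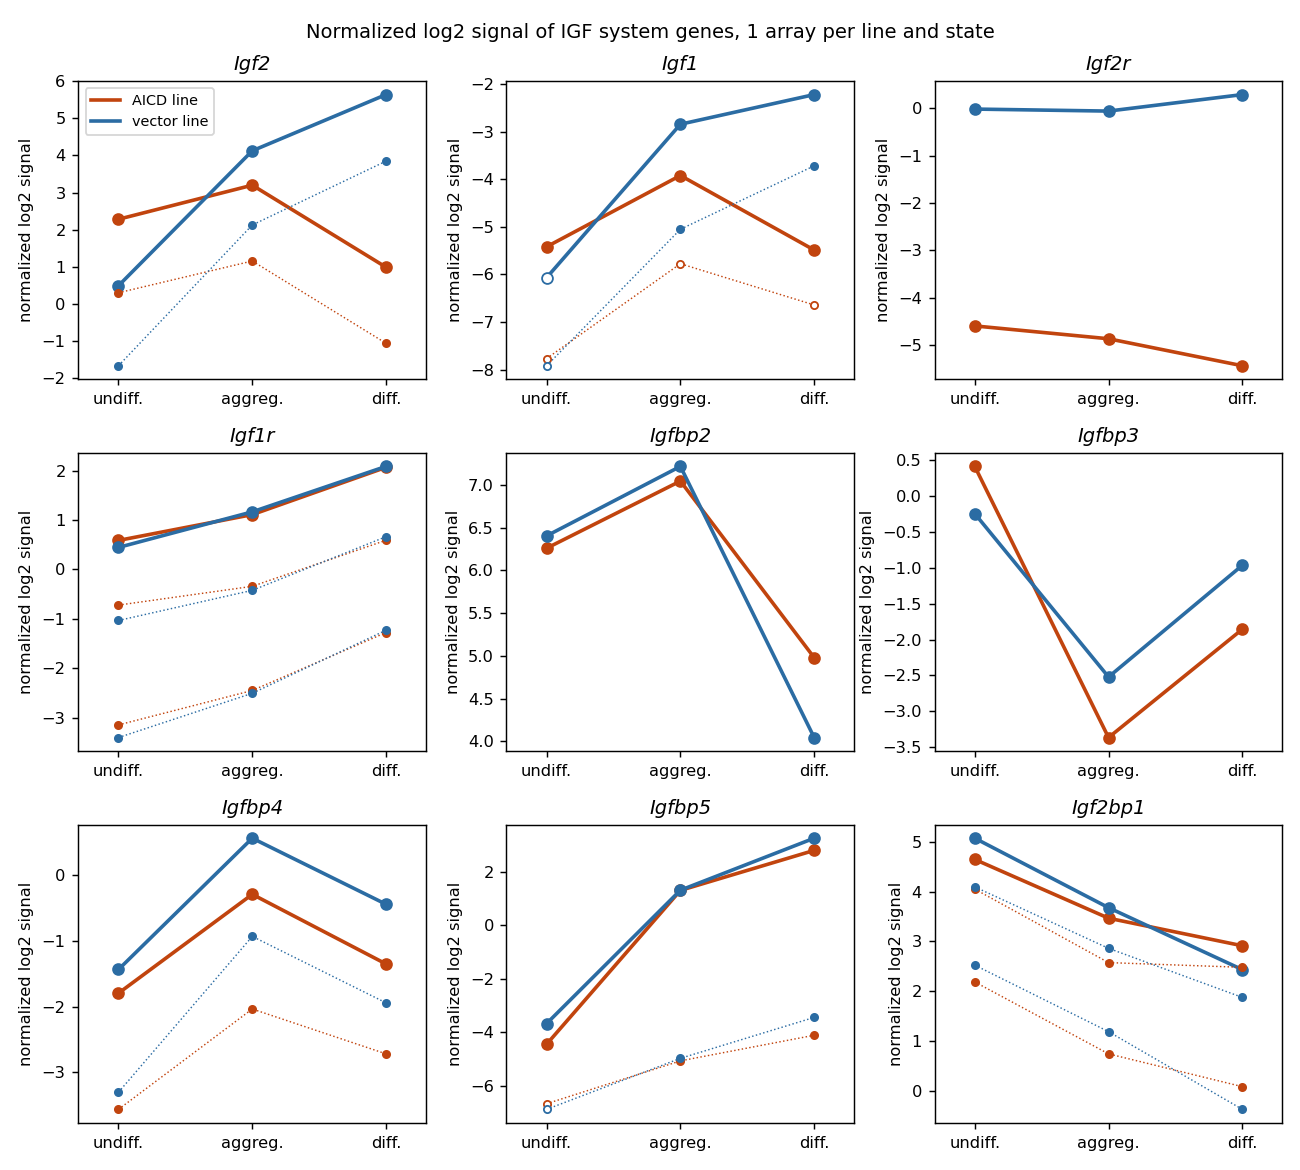
Normalized log2 signal (log2 of the processed signal minus the 75th percentile of the array) of the 9 measured genes in the AICD line (orange) and the vector line (blue) over the 3 states, 1 array per point. Solid lines are the probe used for the gene, dotted lines its other probes, and open points were not well above background; Igf2 crosses between the lines, Igf2r lies 24.0-fold to 53.3-fold lower in AICD cells, and Igf1r runs along one course in both lines.

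Markers of mesenchyme also differed between the lines. The relative signals of 12 mesenchyme markers, among them the collagens Col1a1, Col1a2 and Col3a1 and the regulators Twist1, Prrx1 and Snai2, summed to 2.42, 1.496 and 0.904 in undifferentiated, aggregated and differentiated AICD cells, against 4.47, 8.19 and 34.7 in vector cells. After replating, 8 of the 12 were well above background on the AICD array and 12 on the vector array; Col1a1, Pdgfrb, Thy1 and Lum were not on the AICD array. The 8 markers measured on both differentiated arrays were all lower in the AICD line, by a median of -4.57. In undifferentiated cells, where Igf2 was higher in the AICD line, the list was split. Of 9 markers measured on both arrays 3 were higher in the AICD line and 6 lower. At least 2-fold higher was 1, Col3a1 (2.03), and at least 2-fold lower were 4: Thy1 (-2.94), Snai2, Twist1 and Col1a1. Pdgfra and Postn were well above background on the AICD array alone. Of 8 endoderm markers 4 were measured, and their summed signal lay between 0.252 and 0.516 on the 6 arrays. Foxa2, dim throughout, was well above background on each vector array and on no AICD array. Gata6, the brightest of the 4, was higher in the AICD line in every state. The part of mesenchyme and endoderm cells in the Igf2 and Igf1 values was not tested.

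**Figure D2:**
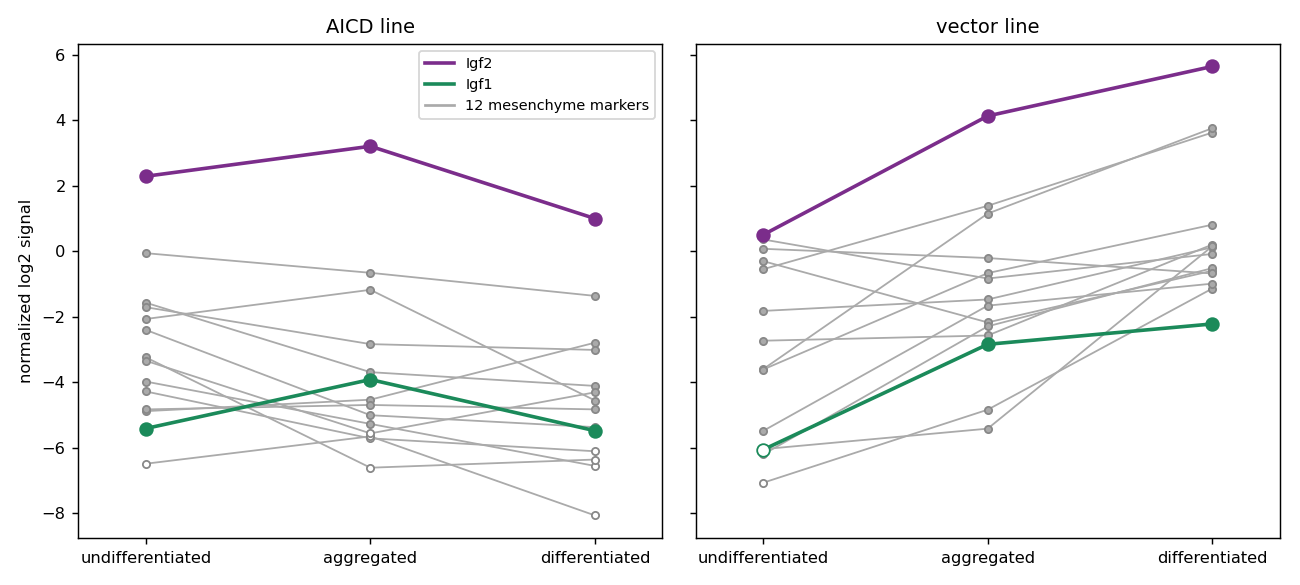
Normalized log2 signal of Igf2 (purple), Igf1 (green) and 12 mesenchyme markers (grey) over the 3 states in the AICD line (left) and the vector line (right), 1 array per point, open where not well above background. In differentiated vector cells Igf2, Igf1 and the markers stand higher than in either earlier state of that line, the markers by their median, and in differentiated AICD cells Igf2 and Igf1 lie 25.0-fold and 9.60-fold below them.

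Among the other 13380 genes, the 5 whose course over the 6 arrays lay nearest to that of Igf2 were Igf1, Hmcn1, Ednra, Lmcd1 and Ccdc80. The measure was the root mean square difference after each gene's own mean was subtracted, and it was 0.52 log2 for Igf1 (Pearson r = 0.97 over 6 arrays, 2 lines in 3 states) and 0.54 to 0.73 for the other four. Igf1 was well above background on 5 of the 6 arrays and near it in undifferentiated and differentiated AICD cells. The measure was not repeated with normexp, which gave smaller Igf1 line differences in aggregated and differentiated cells. Hmcn1, a matrix protein of the hemicentin family, was well above background on 2 of the 6 arrays, so most of its course is only a bound. Ednra, the endothelin A receptor, was not well above background in undifferentiated vector cells; its normalized log2 signals were -4.65, -4.05 and -4.13 in undifferentiated, aggregated and differentiated AICD cells, against -1.50 and -0.62 in aggregated and differentiated vector cells.

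Of the receptors, Igf2r set the lines apart in every state, while the 3 probes of Igf1r differed by at most 0.31 log2 units. Igf2r had a relative signal of 0.0413, 0.0342 and 0.0230 in undifferentiated, aggregated and differentiated AICD cells, against 0.991, 0.962 and 1.225 in vector cells. It was 24.0-fold lower in the AICD line before aggregation (-4.59), 28.2-fold lower after aggregation (-4.81) and 53.3-fold lower after replating (-5.73). Its mean line difference was -5.05 ± 0.27 (SE of the limma fit, whose spread is drawn partly from all genes). It was well above background on all 6 arrays, but its normalized log2 signals on the AICD arrays, -4.60, -4.87 and -5.44, lay near the lowest value of any probe called so there, -5.77, -5.70 and -5.90. Igf2r rests on 1 probe with 1 spot. With normexp the 3 differences were -2.91, -2.86 and -3.53, so the fold is open to the background correction while the direction was not changed by it.

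Across the states Igf2r varied little within a line. It changed by -0.27 on aggregation and -0.57 on replating in the AICD line, and by -0.04 and 0.35 in the vector line. Neither step passed the test over both lines (adjusted p = 0.717 and 0.835, limma).

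In the additive model of state and line, 47 of 13381 genes (0.351%) differed between the lines at adjusted p under 0.05, 28 of them (0.209%) higher and 19 (0.142%) lower in the AICD line. Igf2r was the 1 member of 9 among them. Because the list was drawn up with this comparison in view, nothing is read from that count. The same holds for the medians and the 2-fold counts that follow, which are given as a description. The fitted line differences of the 9 members had a median of -0.41, against 0.00 over all genes tested. Between single arrays, 2 of the 8 members measured on both undifferentiated arrays were at least 2-fold apart (8.36% of all genes were), 2 of 9 on the aggregated arrays (7.31%) and 3 of 9 on the differentiated arrays (8.55%). These were Igf2r in every state, Igf2 in undifferentiated and differentiated cells, and Igf1 in aggregated and differentiated cells. For Igf2 the fitted line difference was -1.26 ± 1.32 and for Igf1 -1.23 ± 0.80, errors that hold the turn of sign between states. The count of genes was 0 with either aggregated or either differentiated array left out, with fitted differences of -5.16 and -4.70 for Igf2r; it was 97 without either undifferentiated array and 0 with all dim probes kept.

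**Figure D3:**
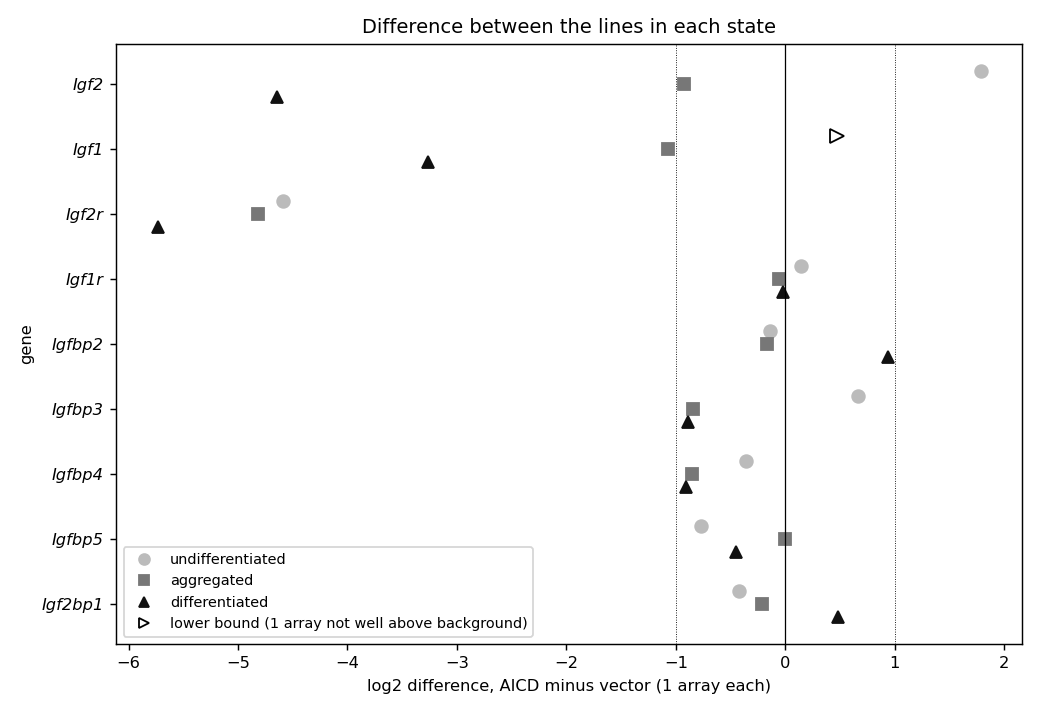
Log2 difference between the AICD and vector arrays of each state for the 9 measured genes, with circles for undifferentiated, squares for aggregated and triangles for differentiated cells. The open arrowhead is the lower bound for Igf1 in undifferentiated cells, and dotted lines mark 2-fold; Igf2r lies between -4.59 and -5.73 in all states and Igf2 spans 1.79 to -4.65.

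None of the measured genes beside Igf2r on the chromosome differed as far between the lines. Of its 20 nearest measured neighbours, 10 on each side in the gene order of GRCm38.p6, 0 passed the limma test between the lines. Over all genes 0.351% passed, and 1674 genes had an unadjusted p under 0.05. The median fitted difference of the neighbours was 0.10, with a range of -1.40 to 3.16. Map3k4, a kinase of stress signalling, gave 0.03, 0.04 and 0.26 in undifferentiated, aggregated and differentiated cells, and Mrpl18, a mitochondrial ribosomal protein, gave -0.07, 0.21 and 0.36. Pde10a, a cyclic nucleotide phosphodiesterase, was lower in all states, by -1.09, -1.88 and -1.24. T, the mesoderm transcription factor brachyury, gave 0.46, 2.32 and 0.36. Tcp10b was 3.16 higher in the fit and was well above background on 2 arrays.

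**Figure D4:**
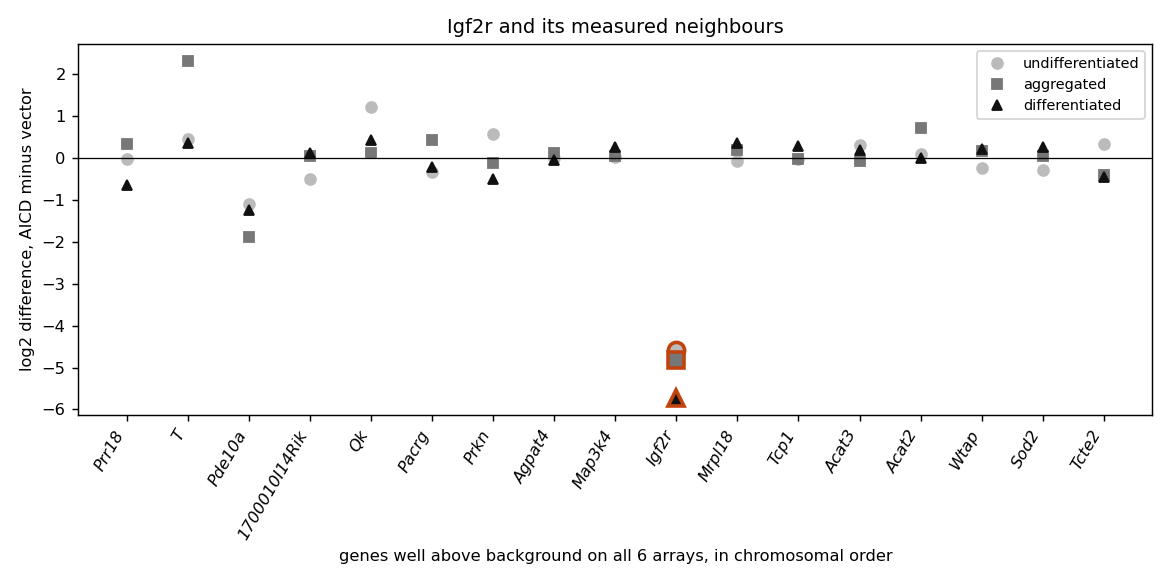
Log2 difference between the AICD and vector arrays in each state for Igf2r (outlined) and those of its 20 nearest measured genes with a signal well above background on each of the 6 arrays, in chromosomal order at even spacing. Igf2r lies between -4.59 and -5.73; the plotted neighbours lie between -1.88 and 2.32 over the 3 states.

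The 5 genes whose course lay nearest to that of Igf2r were Zfp182, Ahrr, Flywch2, Tmem141 and Zrsr1, with root mean square differences of 0.38 to 0.73 log2. Zfp182, a zinc finger gene, had Pearson r = 0.99 with Igf2r over the 6 arrays and was well above background on 3 of them. Ahrr, the repressor of the aryl hydrocarbon receptor, was well above background on 3 arrays too, and Flywch2 and Zrsr1 on 4 each, so for these genes the distances rest partly on values at background. Tmem141, measured on all 6, had normalized log2 signals of -3.74, -4.99 and -4.97 in undifferentiated, aggregated and differentiated AICD cells, against -0.50, -0.98 and -0.72 in vector cells.

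Igf1r, the signalling receptor, differed between the lines by 0.14, -0.06 and -0.02 in undifferentiated, aggregated and differentiated cells. Relative signals were 1.502, 2.16 and 4.18 in AICD cells, against 1.36, 2.24 and 4.24 in vector cells, so the lines overlapped. It rose by 0.62 ± 0.15 on aggregation over both lines (adjusted p = 0.0407, limma). On replating it was 0.94 ± 0.15 higher (adjusted p = 0.0745), 0.96 in the AICD line and 0.92 in the vector line. Its other 2 probes gave line differences of 0.31 and 0.26 in undifferentiated cells and -0.07 to 0.08 later. The rise on aggregation lost its call whichever array was left out, at adjusted p = 0.0775 to 0.223.

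For the step from undifferentiated to aggregated cells over both lines, 5470 genes (40.9%) passed the test, 1982 (14.8%) higher and 3488 (26.1%) lower after aggregation. Of the 9 members, 3 were higher and 2 lower. The median of the members was 0.80 and that of all genes tested -0.27. Between single arrays, 5 of the 9 members were at least 2-fold apart in the AICD line (27.3% of all genes were) and 5 of 8 in the vector line (33.4%). In this step state and slide cannot be told apart. With either aggregated array left out 0 genes passed, while 4389 and 4497 genes had an unadjusted p under 0.05. Without the undifferentiated AICD array 3583 genes passed, and without the undifferentiated vector array 1057 did, Igfbp5 and Igfbp3 among them but not Igfbp4 (adjusted p = 0.0504) or Igf2bp1 (adjusted p = 0.127).

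For each of the 4 binding proteins the largest step between states exceeded the largest difference between the lines. Igfbp5, which binds to extracellular matrix as well as to the ligands, had the largest fitted step of any member. Relative signals were 0.0461, 2.46 and 6.93 in undifferentiated, aggregated and differentiated AICD cells, against 0.0786, 2.47 and 9.50 in vector cells. Both lines were low before aggregation and both were highest after replating. It rose by 5.36 ± 0.24 on aggregation (adjusted p = 0.00673, limma), 53.5-fold in the AICD line and 31.5-fold in the vector line, and was 1.72 ± 0.24 higher after replating (adjusted p = 0.0707). Between the lines it differed by -0.77, -0.01 and -0.45 in the 3 states. Its second probe, not well above background before aggregation, was at least 1.64-fold higher after it in the AICD line and at least 1.90-fold higher in the vector line. With normexp the rise was 3.78, 4.00 in the AICD line and 3.55 in the vector line. It was also 3.55 with the mean of both probes, and without the AICD or the vector aggregated array it had adjusted p = 0.0754 and 0.0659.

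Igfbp4, a binding protein that holds the ligands away from Igf1r, had its highest signal in the aggregates. AICD cells gave relative signals of 0.288, 0.819 and 0.392 when undifferentiated, aggregated and differentiated, against 0.370, 1.48 and 0.738 in vector cells. It rose by 1.75 ± 0.21 on aggregation (adjusted p = 0.0141, limma) and was -1.03 ± 0.21 after replating (adjusted p = 0.0782). It was lower in the AICD line in each state, by -0.36, -0.86 and -0.91. The second probe gave -0.26, -1.11 and -0.78. The AICD and vector values overlapped only when the 3 states were pooled. Compared within states, the fitted line difference was -0.71 ± 0.17 and did not pass (adjusted p = 0.245, limma).

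Igfbp3, the main carrier of the ligands in serum, was lowest in the aggregates. The probe gave relative signals of 1.33, 0.0969 and 0.276 in undifferentiated, aggregated and differentiated AICD cells, against 0.845, 0.174 and 0.513 in vector cells. It fell by 3.03 on aggregation (SE 0.46, adjusted p = 0.0184, limma), -3.78 in the AICD line and -2.28 in the vector line. After replating it was 1.51 higher in the AICD line and 1.56 higher in the vector line (adjusted p = 0.117). The AICD line was 0.66 above the vector line before aggregation and 0.85 and 0.89 log2 units below it afterwards. With normexp the difference after aggregation was -0.46.

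Igfbp2, abundant in the embryonic nervous system, was well above background on all 6 arrays. Relative signals were 76.6, 132.0 and 31.5 in undifferentiated, aggregated and differentiated AICD cells, against 84.6, 148.7 and 16.5 in vector cells. On replating it was 2.07 log2 units lower in the AICD line and 3.17 lower in the vector line, and the fit gave -2.62 ± 0.34 (adjusted p = 0.0690, limma). The line differences were -0.14, -0.17 and 0.93, so the lines lay within 1.13-fold until replating. Igfbp2 and Igfbp5 are neighbours on chromosome 1 and moved in opposite directions on replating in both lines.

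Igf2bp1, which binds Igf2 and other mRNAs and is a feature of embryonic cells, was lower at each later state in both lines. It had relative signals of 25.0, 11.04 and 7.52 in undifferentiated, aggregated and differentiated AICD cells, against 33.6, 12.8 and 5.39 in vector cells. It fell by 1.29 on aggregation (SE 0.28, adjusted p = 0.0318, limma) and was -0.90 ± 0.28 after replating (adjusted p = 0.120). The AICD line was lower by -0.43 and -0.21 in the first 2 states and 0.48 higher after replating. All 3 of its probes gave these signs. With quantile normalization the step on aggregation was -0.90 (adjusted p = 0.0657).

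Igf2 and Igf1 were 2.27 ± 1.61 and 2.36 ± 0.99 higher after aggregation over both lines, and did not pass (adjusted p = 0.301 and 0.123, limma); with normexp the Igf1 value was 0.65. For the step from aggregated to differentiated cells 0 genes (0.0%) passed the limma test, the lowest adjusted p being 0.0578. At an unadjusted p under 0.05 there were 4397 genes (32.9%) and 6 of the 9 members: Igfbp2, Igfbp5, Igf1r, Igfbp4, Igfbp3 and Igf2bp1. Their steps had the same sign in both lines, whereas Igf2, Igf1 and Igf2r had opposite signs in the AICD and vector lines. That split is partly built into the fit: opposite steps in the lines shrink the fitted step and enlarge its error. Between single arrays, 6 of the 9 members were at least 2-fold apart at this step in the AICD line and 6 in the vector line, where 11.1% and 22.5% of genes were. With normexp 1380 genes passed at this step, Igfbp2, Igfbp5, Igf1r and Igfbp4 among them, and 695 did among genes well above background on all 6 arrays, with Igfbp2 (adjusted p = 0.0469) and Igfbp5 (0.0476) among them.

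**Figure D5:**
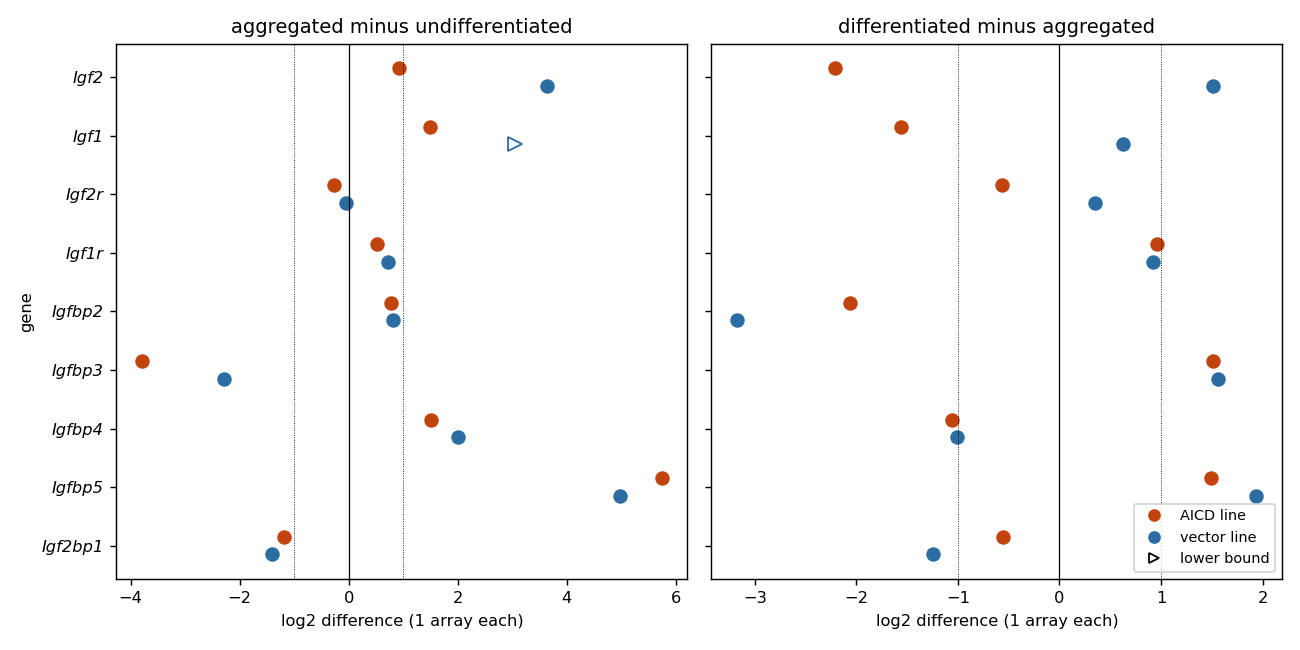
Log2 difference of each step within the AICD line (orange) and the vector line (blue) for the 9 measured genes, aggregated minus undifferentiated on the left and differentiated minus aggregated on the right. The open arrowhead is a lower bound and dotted lines mark 2-fold; Igfbp5, Igfbp4, Igfbp3, Igfbp2, Igf1r and Igf2bp1 take the same direction in both lines at each step, and Igf2 is at -2.21 in the AICD line and 1.51 in the vector line on replating.

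Of 18 other IGF and insulin genes on the list, 13 were measured. Between the lines 10 had a positive and 3 a negative fitted difference, 0 passed (0.351% of all genes did), and their median was 0.35. Igfbpl1, a binding-protein-like gene, had the largest fitted difference: it was 1.53, 4.41 and 4.74 higher in the AICD line in undifferentiated, aggregated and differentiated cells (fitted 3.56 ± 0.73). Its normalized log2 signal was -2.25, 0.81 and 1.30 in AICD cells, against -3.78, -3.60 and -3.44 in vector cells. On aggregation, where 14.8% of all genes were called higher and 26.1% lower, 1 of the 13 rose, the insulin receptor Insr (0.73 ± 0.15), and 2 fell, the insulin receptor-related receptor Insrr by 1.02 and the Igf2bp1 relative Igf2bp3 by 0.62.

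Of 10 proteases of the binding proteins and their inhibitors, 8 were measured, and on aggregation 3 rose and 4 fell, against 14.8% and 26.1% of all genes. Pappa, which cuts Igfbp4, rose by 2.42 ± 0.42, and Stc1, a stanniocalcin that inhibits it in human, rose by 2.48 ± 0.34. Htra1, a serine protease, fell by 1.67. Between the lines 0 of the 8 passed (0.351% of all genes did). Pappa was 0.88, 2.46 and 1.80 higher in the AICD line in undifferentiated, aggregated and differentiated cells. The fitted line difference of Htra1 was 1.24 ± 0.14, with the same sign in all states, and Stc1 was at -1.06 and -1.69 in undifferentiated and aggregated cells. In differentiated cells Stc1 was not well above background on the AICD array.

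Of 33 adaptors and signalling genes downstream of the receptors, 31 were measured. Between the lines 0 passed (0.351% of all genes did) and the median was -0.02. Irs1, an insulin receptor substrate, had the largest fitted difference, -1.09 ± 0.19, with -0.68, -1.17 and -1.42 in undifferentiated, aggregated and differentiated cells. On aggregation 8 rose and 7 fell of the 31, where 40.9% of all genes passed. Those that rose included the phosphoinositide 3-kinase subunits Pik3r3 (2.03) and Pik3r1 (1.64) and the kinase Akt1 (1.33). Those that fell included the adaptor Grb10, an imprinted inhibitor of receptor signalling (-3.68), the adaptor Shc1 (-2.17), the transcription factor Foxo1 (-2.11) and Irs4 (-1.43).

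Genes that work with Igf2r in lysosomal sorting were compared between the lines. All 17 genes of mannose 6-phosphate tagging and sorting were measured, and their fitted line differences ran from -0.28 to 0.27. Between the lines 0 of the 17 passed, where 0.351% of all genes did. In each of the 3 states 0 of the 17 were at least 2-fold apart between the lines. Of all genes 8.36%, 7.31% and 8.55% were, in undifferentiated, aggregated and differentiated cells. For so few genes counts of 0 are near these shares, and nothing is read from them. M6pr, the cation-dependent mannose 6-phosphate receptor, was at -0.66, -0.15 and 0.03 in undifferentiated, aggregated and differentiated cells. On aggregation 3 rose, Gnptg (1.88), Snx1 (1.28) and Ap1m1 (0.74), and 3 fell, M6pr (-1.27), Gnptab (-1.05) and Nagpa (-0.77), where 14.8% of all genes were called higher and 26.1% lower. Gnptg and Gnptab, subunits of the enzyme that makes the mannose 6-phosphate tag, thus moved in opposite directions.

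Of 17 regulators of Igf2, H19 and let-7, 14 were measured, and on aggregation 0 rose and 4 fell, where 26.1% of all genes fell. Lin28a and Lin28b, which block let-7 maturation, fell by 6.17 and 1.86, Dnmt3l, a cofactor of DNA methylation in germ cells, by 2.01, and Trim28, a corepressor that maintains imprints, by 0.73. Between the lines 0 of the 14 passed (0.351% of all genes did). Lin28a was at -0.70, 0.68 and 3.07 in undifferentiated, aggregated and differentiated cells.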

How the data were processed

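Total RNA of each culture was labelled with Cy3 and hybridised to 1 Agilent array. The deposited scanner output was read with Agilent Feature Extraction 10.1.1.1, per the submitters' processing notes; its processed signal is a background-subtracted intensity with no scaling between arrays, per the file headers. The authors also deposited a score per probe, used only as a check: 99.7% of 34111 listed values equalled, within 0.01, the log2 signal less the 75th percentile of its array and less the median of its probe, with values under 0 given as negative reciprocals.

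Spots flagged as outliers were left out and spots of a probe averaged. Log2 signals were scaled to the array's 75th percentile. Of 41174 probes, 24822 received a symbol of GRCm38.p6 through their RefSeq accession, and probes well above background on at least 2 of 6 arrays were kept; the probe with the highest mean stood for a gene. limma 3.58.1 (R 4.3.3) fitted state and line with 2 residual degrees of freedom, followed by eBayes and two-sided tests with Benjamini-Hochberg adjustment over 13381 genes at 0.05. Its spread is the variation of one effect over the levels of the other, not a spread between cultures, and nothing says whether the arrays came from separate cultures; their number limits the precision. The fit was tested on simulated data. Folds marked "at least" use the lowest normalized signal well above background on the dim array. Differences between single arrays have no test.

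Alternatives were normexp (offset 50, on the median spot signal, in place of the mean signal that had been planned), quantile normalization, other filters and probe rules, the second slide alone and each array left out. All members are described. In each list up to 4 genes per comparison with the largest fitted difference, and those past the threshold, could be named. Neighbours of Igf2r and of Igf2 were named for their position or after their values were seen, and so were Cdkn1c and Phlda2. The members and lists were chosen with earlier results of these data known. Figures were drawn with matplotlib 3.10.9.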

Additional observations from a re-analysis of the deposited data

Results flagged for a closer look

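The difference between the lines had opposite signs in different states for Igf2: 1.79 log2 units, AICD minus vector, in undifferentiated cells and -4.65 in differentiated cells, each from 1 array per line. Its step from aggregated to differentiated cells was -2.21 in the AICD line and 1.51 in the vector line. Neither of these differences between states or lines was tested, because there was 1 array per line and state. The second Igf2 probe gave 1.96 and -4.90 for the lines, and -2.22 and 1.72 for the step in the AICD and vector lines.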

How the results depend on the processing

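Precision was limited by 1 array per line and state and, for Igf2r and Igf1 in the AICD line, by signals near background. The fit pairs the lines by state. Replicate cultures could not be paired, because each group has 1 array and the labels carry no replicate numbers to block on. The count of genes that differed between the lines, 47 as reported, was 0 with no filter on dim probes (where 1840 genes had an unadjusted p under 0.05), 97 on the second slide alone and 0 to 97 with 1 array left out. The count for aggregated against undifferentiated cells was 5470 as reported and 0 to 3986 with 1 array left out, the 0 arising without either aggregated array, 1057 without the undifferentiated vector array and 3583 without the undifferentiated AICD array. The count for differentiated against aggregated cells was 0 as reported, 1380 with normexp (Igf1r, Igfbp2, Igfbp4 and Igfbp5 among them) and 695 among genes well above background on all 6 arrays. Of 312 fitted member values under alternatives, 20 changed sign, 17 of them with 1 array left out; every fitted member value that changed sign was one that did not pass as reported. The line difference of Igf2bp1, -0.05 as reported, was 0.0184 with quantile normalization, 0.13 on the second slide and -0.32 to 0.13 with 1 array left out. That of Igf1r, 0.02, was -0.0373 on the second slide and -0.0373 to 0.0613 with 1 array left out. With 1 array left out, the line difference ran from -2.79 to 0.43 for Igf2 and from -0.16 to 0.40 for Igfbp2. The step on aggregation then ran from -0.0135 to 4.56 for Igf2 and from -0.50 to 0.19 for Igf2r, and the step on replating from -2.89 to 2.19 for Igf2, from -1.995 to 1.05 for Igf1 and from -0.63 to 0.41 for Igf2r. Under quantile normalization the median of all genes on aggregation was -0.12 in both lines, against -0.23 and -0.30 in the AICD and vector lines as reported. The causes were not tested.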

Other observations

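Igf2 lies in an imprinted domain of chromosome 7, and its nearest measured neighbours on both sides were compared between the lines. Of 20 such genes, 0 passed the limma test between the lines, where 0.351% of all genes did, and their median fitted difference was 0.10. Between single arrays, 3 were at least 2-fold higher and 1 lower of 18 in undifferentiated cells (8.36% of all genes were 2-fold apart). In aggregated cells 2 were higher and 0 lower of 19 (7.31%), and in differentiated cells 0 were higher and 3 lower of 18 (8.55%). Ins2, next to Igf2, differed by 0.15, 0.34 and 0.06 in undifferentiated, aggregated and differentiated cells, AICD minus vector, and Mrpl23 on the other side by -0.28, 0.01 and 0.08. Cdkn1c, an imprinted inhibitor of cyclin-dependent kinases, changed sign over the course as Igf2 did but at another step: it was 1.54 and 2.73 higher in the AICD line in undifferentiated and aggregated cells and -1.12 in differentiated cells. Phlda2, an imprinted gene that limits placental growth, was at -0.52, 1.88 and 0.45. These differences have no test.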
